A study of Rattus norvegicus with 4 samples.

Results

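The genes described here make, break down and read cyclic AMP (cAMP), the second messenger whose synthesis is lowered by receptors coupled to the inhibitory G protein Gi, such as GPR17. Members were chosen by gene symbol: adenylyl cyclases (Adcy followed by a number), the phosphodiesterase families Pde1, Pde3, Pde4, Pde7, Pde8 and Pde10, the catalytic (Prkaca, Prkacb) and regulatory (Prkar) subunits of protein kinase A (PKA), the G alpha genes Gnai, Gnao and Gnas, and the readers Creb1, Crem, Crtc, Rapgef3 and Rapgef4. The rule found 41 genes with at least 1 probe among 16581 genes matched to a probe, and 35 of them, among 11656 genes in all, had a probe bright enough to be tested. One of the 35, Pde4dip, matched only by the letters of its symbol: it encodes myomegalin, a scaffold that binds a phosphodiesterase and is not itself one. For 4 further symbols of the rule in the gene table, namely Crtc3, Rapgef4 and the pseudogenes Gnai2-ps1 and Prkar1a-ps1, no probe was matched.

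The study asked what follows when GPR17, a receptor of maturing oligodendrocytes, is silenced. Oligodendrocyte precursor cells (OPCs) from pooled cortices of Sprague–Dawley rats at postnatal day 2 were expanded for 3 days with PDGF and bFGF and moved to a medium with thyroid hormone that starts differentiation. At that switch, both groups received 50 nM siRNA: a pool against the Gpr17 transcript (siGPR17) or a non-targeting pool (siNEG). RNA was collected 48 h later, on day 2 of maturation, and 2 arrays per group were hybridised with 1 colour (Cy3). Silencing lowers the receptor's transcript without deleting the gene. Nothing in the labels says that replicates came from separate cultures, so the p-values below measure only the spread between these samples, which may be technical.

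As background, adenylyl cyclases convert ATP to cAMP, Gs stimulates them and Gi inhibits them, and phosphodiesterases (PDEs) hydrolyse cAMP. Regulatory subunits hold the PKA catalytic subunits inactive until cAMP binds, after which the freed kinase phosphorylates targets that include the transcription factor CREB, while the exchange factor EPAC switches on Rap GTPases in parallel. In the oligodendrocyte lineage, GPR17 is known to act on this pathway through Gi, and raised cAMP is known to favour maturation of the cells.

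CREB-family factors bind the cAMP response element, CRE, whose full letters TGACGTCA read the same on both strands. The windows below show the only full CREs found in the promoters of 30 member genes, each with its CRE in capitals. Other members, Prkar2a, Pde3b and Adcy6 among them, had no promoter at hand and were not searched. The windows are shown because Crem is one of the members whose arrays separated between the groups. They come from RefSeq promoters of 250 bases before to 50 after a start site on the GRCr8 build, written 5′ to 3′ on the strand of the gene.

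Crem, chr17:58984681-58984808, plus strand: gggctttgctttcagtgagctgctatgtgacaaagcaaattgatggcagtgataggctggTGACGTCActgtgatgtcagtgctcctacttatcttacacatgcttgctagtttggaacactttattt

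Crem, chr17:58985395-58985539, plus strand: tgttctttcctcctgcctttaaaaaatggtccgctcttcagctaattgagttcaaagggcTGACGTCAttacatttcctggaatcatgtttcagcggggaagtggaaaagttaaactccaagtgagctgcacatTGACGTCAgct

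Gnao1, chr19:11198491-11198618, minus strand: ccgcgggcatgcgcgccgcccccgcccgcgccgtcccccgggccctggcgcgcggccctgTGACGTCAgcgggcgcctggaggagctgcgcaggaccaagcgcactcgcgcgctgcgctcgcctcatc

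Relative to the first transcribed base (position 0), the CRE of the first Crem window began at -56, those of the second at -35 and 39, and that of Gnao1 at -121. The table held 46 promoters of 30 member genes, of which 3 (6.52%), from 2 genes, held a full CRE, against 612 of 33469 promoters overall (1.83%). The CRE part TGACG, searched on both strands and contained in every full CRE, was present in 17 of the 46 (37.0%), from 13 genes including Creb1, Pde4a, Pde4d, Pde8a, Pde10a, Gnas, Prkaca and Prkacb, and in 21.2% of all promoters. A match of letters is a description of these windows and no evidence of binding.

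Of 45598 probes that were not controls, between 26997 and 28244 per array were well above background, and no spot was saturated. All 4 arrays lay on 1 slide and were scanned once. Both siNEG arrays lay in one slide column and both siGPR17 arrays in another, so slide column and treatment cannot be told apart. The Gpr17 probe, the check of the silencing on the arrays, gave normalized signals of 1107 and 1113 on the siNEG arrays and 652.3 and 639.4 on the siGPR17 arrays, a log2 fold change of -0.78 (SE 0.085, limma adjusted p = 0.209). The paper also reports the knockdown by qRT-PCR. Signals throughout are linear intensities scaled to a common 75th percentile of 599.6 units, and log2 fold changes are siGPR17 minus siNEG. Precursor markers (8 of 8 well above background on every array) summed to 276506 and 313401 in siNEG against 273856 and 273137 in siGPR17. Of the 8, 5 were lower in siGPR17 without overlap, among them Gpr17, Cspg4 at a log2 fold change of -0.48 and Pdgfra at -0.23, and 1, Bcas1, was higher at 0.090. Gpr17 is the target of the siRNA, so its lower signal says nothing about the stage of the cells. The paper places its highest level in pre-oligodendrocytes at intermediate stages. Summed signals of mature oligodendrocyte markers (7 of 8) were 300866 and 337940 in siNEG against 355455 and 369831 in siGPR17, although 5 of the 8 were lower without overlap and 3 higher. The 5 include Opalin, which was dim (11.8 and 19.1 against 7.96 and 3.21) and not well above background on every array. Mbp, 1 of the 3 higher ones, made up most of the sums, with 197178 and 227699 against 256521 and 272873. Astrocyte markers (6 of 6 above background) summed to 7588 and 8202 against 6076 and 5987. Most of that was Slc1a3 (6967 and 7592 against 5672 and 5545), and 4 of the 6 were lower without overlap. Each sum follows its brightest genes. Neuronal markers (6 of 7, Slc17a7 not above background on any array) summed to 3082 and 3515 against 2898 and 2760, and microglial ones (5 of 7, without Csf1r and Ptprc) to 2992 and 1482 against 1643 and 2172. Most of the microglial sum was Cx3cr1 (2512 and 1241 against 1338 and 1884), whose arrays overlapped. Endothelial markers (3 of 5, without Pecam1 and Cldn5) summed to 312.9 and 344.2 against 490.1 and 496.0, and fibroblast and mural ones (3 of 7, without Dcn, Lum, Pdgfrb and Rgs5) to 463.6 and 349.7 against 471.1 and 470.2. The part of these shifts in the results below was not tested, and in bulk RNA fewer cells of a type and less RNA per cell cannot be told apart.

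No member of the cAMP and PKA genes passed the thresholds of a 1.5-fold change and a limma adjusted p under 0.07 (0 of 35), where the share over all 11656 genes was 0%. At an unadjusted limma p under 0.05 there were 8 members (22.9%), 3 with higher and 5 with lower signal in siGPR17, against 16.2% of all genes. The methods' t-test also left 0 members past the thresholds, with 8 at an unadjusted p under 0.05 (22.9%, against 14.4% of all genes). Without overlap of the groups, 10 members were higher in siGPR17 (28.6%, against 28.1% of all genes) and 13 were lower (37.1%, against 25.3%), and the arrays of 12 overlapped. The 35 log2 fold changes ran from -0.79 to 3.18 with a median of -0.058, where the median of all genes was 0.0099, and their median size was 0.19 against 0.14. A fold of 1.5 or more was reached by 4 members (11.4%, against 5.08% of all genes): Prkar2a, Pde3b, Gnai1 and Pde3a. With normexp background correction only Pde3a of the 35 did so (2.86%, against 1.05% of all genes), and the log2 fold changes were -0.42 for Prkar2a, -0.21 for Pde3b, 0.32 for Gnai1 and 0.96 for Pde3a. Pde3a passed the filter on dim probes only through the siGPR17 arrays, and Gnai1 was well above background on 1 of 2 siNEG arrays. Both are also among the 10 members higher without overlap. A filter on all 4 arrays left 33 members, without either, so these shares are no result about the members. With limma's trend and robust options, 1 member (2.86%), Prkar2a, passed the thresholds, against 1.58% of all genes.

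The direction counts depend on the scaling. When the arrays were scaled on the spike-in controls instead, a setting chosen after seeing the data, the median of all genes moved to 0.14 and that of the members to 0.074, and 15 members lay higher and 6 lower without overlap, where 49% and 12.9% of all genes did so. Positive values numbered 22 in place of 13, since Adcy3, Pde7b, Prkaca, Prkacb, Prkar2b, Gnai3, Gnas, Creb1 and Crtc1, whose values were small and negative, turned positive under it. The median of the members minus that of all genes was -0.068 on the log2 scale under both scalings. Scaling by a single factor per array shifts every gene alike, so this equality was fixed in advance. It is no test of the lower median of the members. The counts by direction hold relative to the 75th percentile.

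**Figure D1:**
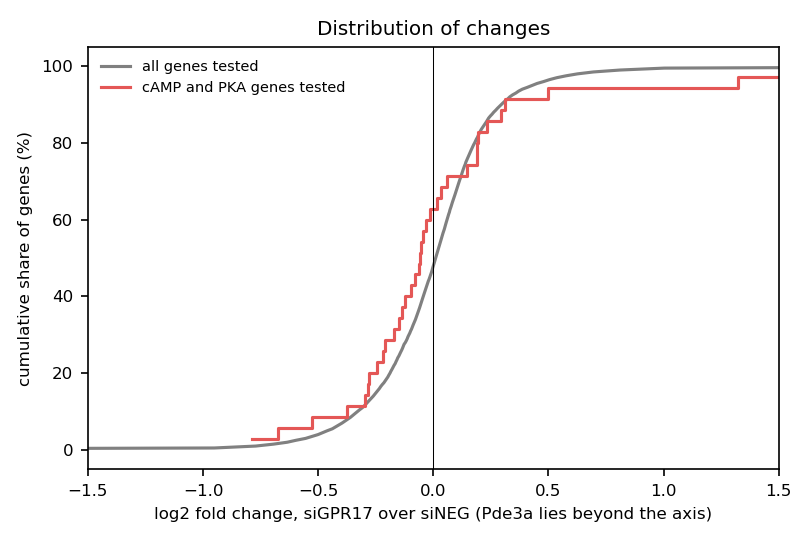
Cumulative share (y axis, percent) of genes by log2 fold change of siGPR17 over siNEG (x axis) for the 35 tested cAMP and PKA genes (red, with Pde3a beyond the axis) and for all 11656 genes tested (grey). The member curve has its median at -0.058, against 0.0099 for all genes.

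Of 4 tested PKA regulatory subunits, 2 had lower signal in siGPR17 without overlap, 1 had higher signal and 1 overlapped. Here and in the classes below, such counts stand beside 28.1% higher and 25.3% lower in all genes. They depend on the scaling and are a description. Prkar2a, the RII alpha subunit that docks PKA on anchoring proteins, gave 109.4 and 108.5 in siNEG and 65.8 and 60.5 in siGPR17. The replicates of each group lay close together and far from the other group, and the signal was 1.73-fold lower in siGPR17 (log2 -0.79, SE 0.094, 95% interval -1.05 to -0.53, limma adjusted p = 0.209). It ranked 45 of 11656 genes by p, and 113 among the genes with lower signal by size. A second Prkar2a probe gave 102.0 and 101.7 against 68.5 and 65.0, a log2 fold change of -0.61, in the same direction. With the trend and robust options of limma the adjusted p of the brighter probe was 0.0497, and it passed the thresholds. With normexp the log2 fold change was -0.42, under the 1.5-fold threshold, at an adjusted p of 0.057. Over the other settings the adjusted p ranged up to 0.665.

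Prkar1a encodes RI alpha, the widely expressed regulatory subunit. Its brightest probe gave 24123 and 29285 in siNEG and 18995 and 17961 in siGPR17, with no overlap, a 1.44-fold lower signal (log2 -0.53, SE 0.13, adjusted p = 0.232 in limma). The second probe, 13077 and 15499 against 10267 and 9417, gave the same log2 fold change of -0.53. A pseudogene of the same name exists in the gene table, and whether its transcripts bind these probes was not tested.

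Prkar1b (RI beta), a subunit known from neurons, was higher without overlap at a log2 fold change of 0.19 (adjusted p = 0.400). The brightest probe of Prkar2b (RII beta) overlapped between the groups at -0.046, while its second probe was higher without overlap at 0.12. Within each array, where scaling by a single factor has no effect, the signal of Prkar2a relative to Prkar2b was 0.74 lower in siGPR17 on the log2 scale and that of Prkar1a relative to Prkar1b 0.72 lower, with no overlap between groups in either pair. Prkar2a and Prkar1a already separated the groups alone, so these ratios add no independent support. The only other pairs compared in this way were Adcy6 with Adcy5 and Pde8a with Pde8b, given below. The brightest probes of the catalytic subunits, which carry the kinase activity, overlapped between the groups. Prkaca gave 25778 and 29109 against 27270 and 24645, and Prkacb 5237 and 6043 against 5543 and 5593. Their log2 fold changes were -0.079 and -0.015. Of the 4 tested Prkacb probes, 3 had positive values and 2 dimmer ones were higher without overlap, at 0.16 and 0.13.

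**Figure D2:**
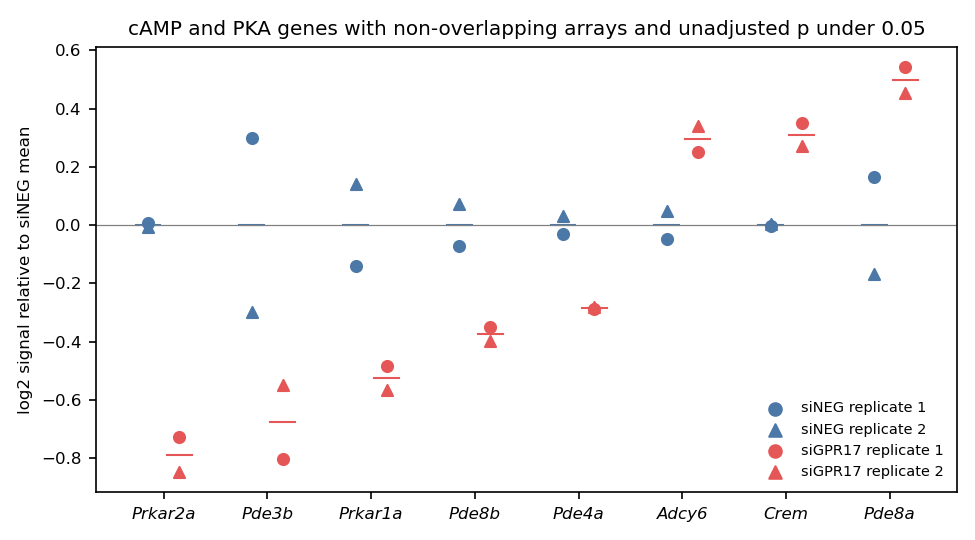
Log2 signal relative to the siNEG mean (y axis) on each of the 4 arrays for the 8 members (x axis) with an unadjusted limma p under 0.05, siNEG in blue and siGPR17 in red, circles for replicate 1, triangles for replicate 2 and lines for group means. The groups do not overlap in any of the 8, with siGPR17 lower in 5 and higher in 3, and the siNEG points of Pde3b lie 0.59 apart.

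Adenylyl cyclases had 6 of 10 members bright enough to test, of which 1 was higher, 2 were lower and 3 overlapped. Adcy6, a cyclase that Gi and calcium inhibit, gave 3413 and 3641 in siNEG and 4197 and 4462 in siGPR17. The groups did not overlap, with a 1.23-fold higher signal (log2 0.30, SE 0.095, limma adjusted p = 0.272), and the second probe gave 0.28. Adcy5, its closest relative and likewise inhibited by Gi, gave 1368 and 1631 against 1224 and 1204, a log2 fold change of -0.30 (SE 0.12, adjusted p = 0.328) that was also free of overlap. Leaving out 1 array moved the Adcy5 value between -0.43 and -0.17, the latter without siNEG replicate 2. The pair had opposite signs, and within arrays Adcy6 relative to Adcy5 was 0.59 higher in siGPR17 on the log2 scale, which follows from those signs. Neither gene passed the thresholds.

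Adcy9, a cyclase with little response to forskolin, gave 355.9 and 405.7 against 326.7 and 329.7 (log2 -0.21, adjusted p = 0.392) and was lower without overlap. Adcy2, which G beta gamma stimulates, and the calcium-responsive Adcy3 and Adcy8 overlapped between the groups, with log2 fold changes of -0.14, -0.053 and 0.033. Adcy1, Adcy4, Adcy7 and the soluble cyclase Adcy10 were too dim to test. Of these, Adcy1 was well above background on 1 siGPR17 array alone, with 5.44 and 18.4 in siNEG against 15.0 and 21.2 in siGPR17, and its groups overlapped.

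Phosphodiesterases had 12 tested genes, of which 7 were lower without overlap, 3 were higher and 2 overlapped, at a median log2 fold change of -0.16. Among all genes 25.3% were lower and 28.1% higher. The lower count depends on the scaling, since with spike-in scaling only 6 of all 35 members were lower without overlap. Pde3b, a cGMP-inhibited enzyme, gave 61.9 and 41.0 in siNEG and 28.9 and 34.4 in siGPR17. The siNEG arrays differed from each other by 0.59 on the log2 scale, nearly as much as the groups did (log2 -0.68, SE 0.24, limma adjusted p = 0.291). Dropping siNEG replicate 2 gave -0.97, and dropping siNEG replicate 1 gave -0.38.

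Pde8a and Pde8b, high-affinity cAMP-specific enzymes, had opposite signs. Pde8a gave 79.1 and 62.7 in siNEG against 102.6 and 96.5 in siGPR17 (log2 0.50, SE 0.15, limma adjusted p = 0.255), and 0.31 with normexp. Pde8b gave 823.3 and 911.6 against 679.9 and 658.0 (log2 -0.37, SE 0.10, adjusted p = 0.240). Neither gene overlapped between groups, and within arrays Pde8a relative to Pde8b was 0.87 higher in siGPR17 on the log2 scale, which follows from the opposite signs.

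The Pde4 family, cAMP-specific and inhibited by rolipram, had 2 of 3 tested members lower without overlap. Pde4a gave 426.9 and 446.3 in siNEG and 357.4 and 359.1 in siGPR17, with tight replicates and no overlap (log2 -0.28, SE 0.087, limma adjusted p = 0.261). Pde4b gave 530.0 and 525.7 against 467.1 and 439.9 (log2 -0.22, adjusted p = 0.327), again without overlap. For Pde4d the probes disagreed. Its brightest probe gave 25835 and 20502 against 26944 and 27217, a log2 fold change of 0.23, while its other 5 tested probes ran from -0.40 to -0.047. The mean over its probes was -0.12, so the direction of Pde4d depends on the probe. The second brightest gave 3296 and 3961 against 2784 and 2682, with no overlap and the opposite sign. Pde4c was above background only on the first siGPR17 array (48.3, where the others gave 3.37 to 3.76) and was not tested.

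**Figure D3:**
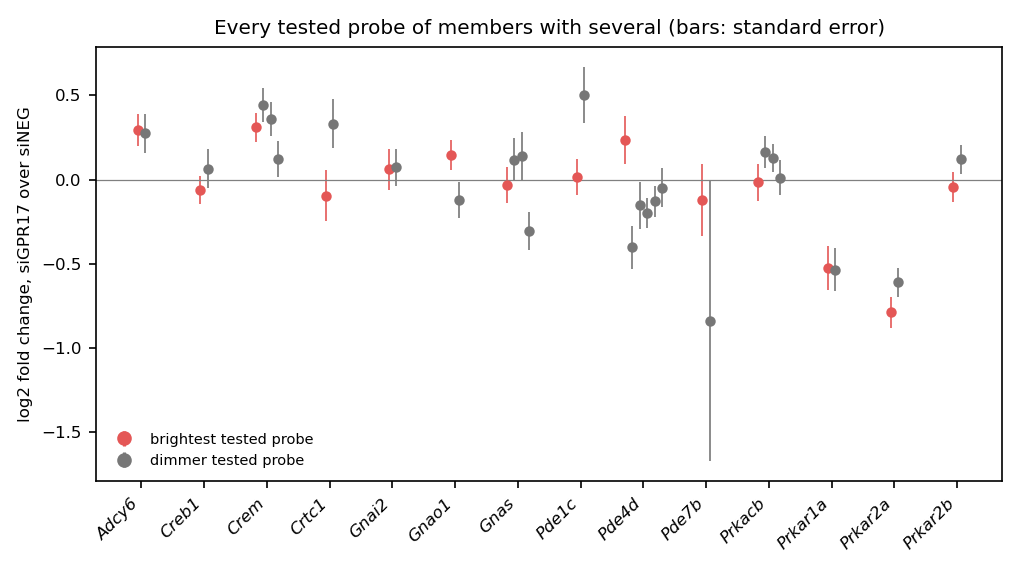
Log2 fold change of siGPR17 over siNEG (y axis, bars for the standard error) for every tested probe of the 14 members (x axis) with 2 or more, the brightest probe in red and dimmer ones in grey. In 7 genes all probes share a sign and in 7, Pde4d among them, they do not.

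The remaining phosphodiesterases did not reach an unadjusted limma p under 0.05. Pde10a, which cleaves both cyclic nucleotides, was lower without overlap (1967 and 2090 against 1768 and 1837, log2 -0.17), as were Pde7a (981.2 and 989.3 against 890.1 and 885.2, log2 -0.15) and the calcium-activated Pde1b (61.3 and 45.9 against 44.9 and 42.6, log2 -0.28). Pde7b and Pde1c overlapped at -0.12 and 0.016, although the second Pde1c probe gave 0.50, and Pde1a was too dim to test. Pde4dip, the scaffold, gave 365.3 and 382.8 against 303.3 and 328.7 (log2 -0.24, adjusted p = 0.317).

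Pde3a, singled out here after its values were seen, gave 3.86 and 13.4 in siNEG and 182.3 and 23.5 in siGPR17. On neither siNEG array was it well above background, so it was tested only through the siGPR17 arrays, which differed from each other by 2.96 on the log2 scale. Between group means the siGPR17 signal was 9.09-fold higher, a value carried by replicate 1. A floor was then set at the lowest signal well above background on each siNEG array. With siNEG values under that floor raised to it, the siGPR17 signal was put at 6.04-fold higher. With the same floor and replicate 2 as the only siGPR17 array, it was put at 2.17-fold higher. None of these folds is a lower bound. The limma interval of the log2 fold change ran from -0.11 to 6.48, which includes no change. The fitted log2 value of 3.18 (SE 1.20, limma adjusted p = 0.308) is no bound either. It was 0.96 with normexp background correction. The fit gave 1.71 without siGPR17 replicate 1 and 4.66 without siGPR17 replicate 2.

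**Figure D4:**
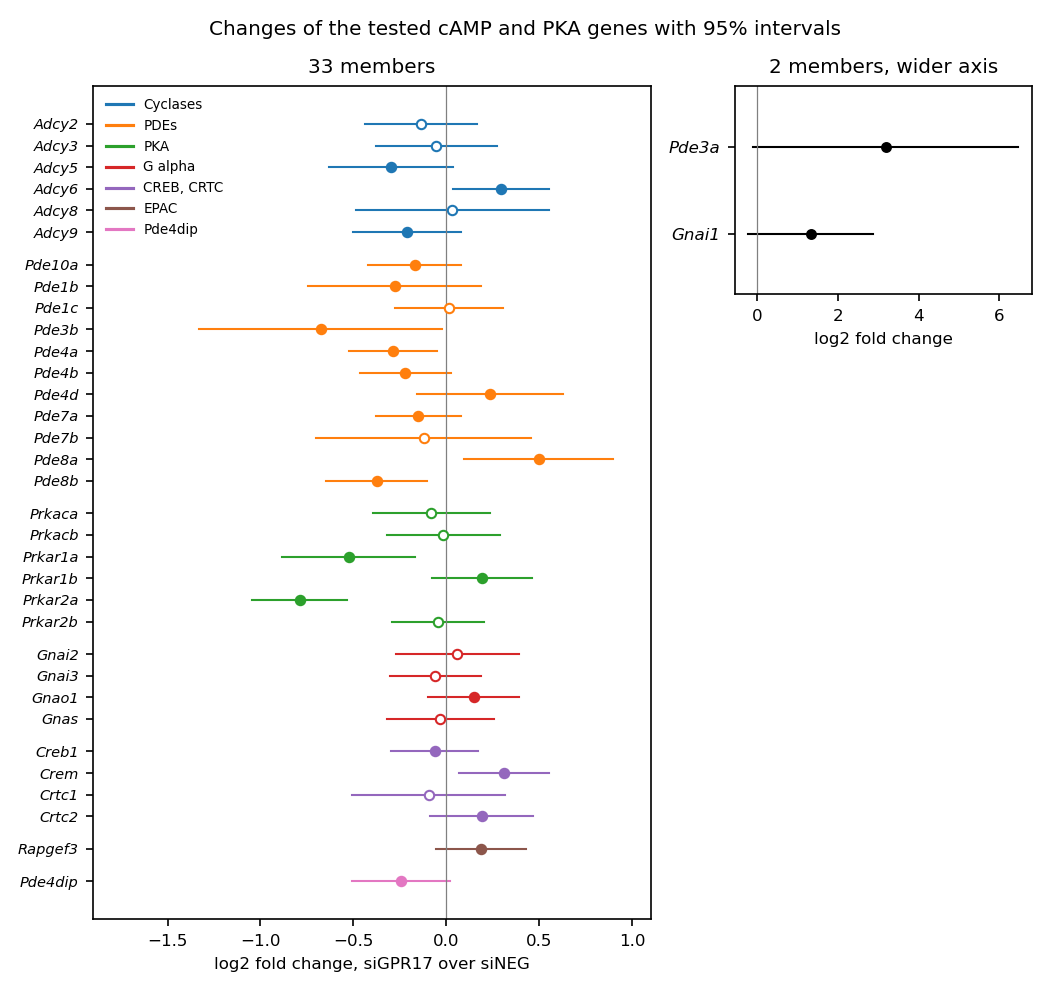
Log2 fold change of siGPR17 over siNEG (x axis) with its 95% limma interval for 33 members in order of class, and for Pde3a and Gnai1 on a wider axis; filled points are members whose arrays do not overlap between groups, and colours mark classes. The intervals of 8 members leave out 0, 5 below it (Prkar2a, Prkar1a, Pde3b, Pde4a, Pde8b) and 3 above it (Adcy6, Pde8a, Crem).

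Inhibitory G alpha subunits, the direct partners of GPR17, had 4 tested members, of which 2 were higher without overlap and 2 overlapped. Gnai2 gave 53062 and 62740 in siNEG against 59043 and 61333, and Gnai3 7909 and 8204 against 7939 and 7541, with overlap in both (log2 0.061 and -0.058). Gnao1, the Go subunit whose promoter window is printed above, gave 1019 and 1043 against 1107 and 1178, higher without overlap (log2 0.15, adjusted p = 0.462 in limma), but its second probe gave -0.12. Gnai1, again singled out after its values were seen, gave 26.2 and 16.0 against 31.0 and 84.5, well above background on 1 of 2 siNEG arrays, with a log2 fold change of 1.32 (SE 0.57, adjusted p = 0.340) that was 0.60 without siGPR17 replicate 2 and 2.05 without siGPR17 replicate 1.

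Gnas, the stimulatory G alpha gene, gave 113302 and 128123 against 115606 and 120195 on its brightest probe, and its arrays overlapped (log2 -0.032). The locus makes several transcripts, and its 4 tested probes ran from -0.30 to 0.14.

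Among the readers of cAMP, Crem, a CREB relative whose internal promoter can give repressor forms, was higher in siGPR17. Its brightest probe gave 532.6 and 534.9 in siNEG and 679.8 and 644.2 in siGPR17 (1.24-fold, log2 0.31, SE 0.088, limma adjusted p = 0.249). All 4 tested Crem probes were higher without overlap, at 0.12 to 0.44 on the log2 scale, the largest from a probe with 224.6 and 227.8 against 290.8 and 324.4. Which transcript forms the probes read, and so which of the promoters printed above they report on, was not tested. Creb1, the activator, gave 630.2 and 631.3 against 614.9 and 593.9, lower without overlap by a small margin (log2 -0.062), and its second probe gave 0.06.

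Crtc2, a CREB coactivator that PKA signalling lets into the nucleus, was higher without overlap at 0.19 (775.6 and 696.4 against 825.9 and 852.0, adjusted p = 0.409), and its relative Crtc1 overlapped at -0.095, while its second probe gave 0.33. Rapgef3, which encodes EPAC1, the cAMP-gated activator of Rap, gave 271.2 and 270.9 in siNEG and 300.6 and 317.9 in siGPR17, higher without overlap (log2 0.19, adjusted p = 0.367).

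Genes around the pathway were followed through lists of related symbols. None of their tested genes passed the thresholds, by limma with the share over all genes at 0%, and each list's count beside 28.1% higher and 25.3% lower in all genes is a description. Of 16 tested PKA anchors and inhibitors 2 were higher and 6 lower without overlap, with a median of -0.10. Akap10, an anchor for PKA, gave 636.1 and 729.9 against 554.1 and 506.1 (log2 -0.36), and Pkig, a PKA inhibitor, 5661 and 6800 against 4997 and 4724 (-0.35). Of 4 other phosphodiesterases, 1 was lower, Pde2a (714.9 and 854.6 against 611.7 and 683.6, log2 -0.27). Of 19 other G protein subunits 5 were higher and 7 lower (median -0.056), led by Gng2 at -0.42 and by Gnal, a stimulatory alpha subunit, at 0.37.

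Among 13 tested genes known to respond to CREB, 3 were higher and 6 lower without overlap (median -0.15). Rgs2, which limits G protein signalling, gave 1545 and 1401 in siNEG against 2326 and 2653 (log2 0.76, SE 0.12, limma adjusted p = 0.209). Egr1, an immediate early factor, gave 168.5 and 163.0 against 225.5 and 279.3 (log2 0.60, adjusted p = 0.217), while Nr4a1, another early factor named here after its value was seen, stood at -0.56 without overlap.

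Of 7 tested CREB relatives and SIK kinases 2 were higher and 1 lower (median -0.048), with Creb3l2, a membrane-bound CREB relative, at 0.65 (1015 and 1017 against 1638 and 1561, adjusted p = 0.209) and Creb5 at 0.50. The 9 tested Rap genes held 2 higher and 3 lower (median 0.0066), with Rapgef5 at 0.27 and Rap1gap, which switches Rap off, at -0.23.

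Gs-coupled receptors, which raise cAMP, had 9 tested genes, 3 higher and 2 lower (median 0.040). The 3 higher ones were Vipr2 at 0.49, Adora2b at 0.48 and Gpr3 at 0.38. Adcyap1r1, the receptor for the peptide PACAP, gave 4344 and 4344 against 3021 and 3110 (log2 -0.50, SE 0.085, limma adjusted p = 0.209), and Crhr1 stood at -0.58. Gi-coupled receptors had 15 tested genes, 2 higher and 8 lower (median -0.20), Gpr17 itself among the lower ones and Cnr1, the cannabinoid receptor, higher at 0.69 (43.6 and 34.6 against 57.5 and 68.1, adjusted p = 0.225).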

How the data were processed

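RNA of 4 rat OPC samples (2 siNEG, 2 siGPR17) was hybridised to 1-colour Agilent arrays. The authors deposited scanner output made with Agilent Feature Extraction 10.7.3.1 (submitters' processing notes), whose processed signal is a background-subtracted intensity per spot, not normalized between arrays. Spots flagged as outliers were left out, spots of a probe were averaged, and log2 of the deposited intensity was taken minus the 75th percentile of each array. That percentile lay between 564.9 and 624.1, and the number of arrays limits the precision. The SD of the difference between replicates over tested probes was 0.366 (siNEG) and 0.287 (siGPR17) on the log2 scale. A probe was tested when well above background on at least 2 of 4 arrays (28016 probes).

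Groups were compared with limma 3.58.1 in R 4.3.3 (lmFit and eBayes, two-sided, Benjamini-Hochberg over all tested probes). The thresholds, a fold of 1.5 and an adjusted p under 0.07, are those of the methods, which name no model for the arrays. An exact permutation of 2 against 2 arrays cannot go below p = 0.333, so none was run on single genes. Each gene is represented by its brightest tested probe. Probes were named by matching accessions to a RefSeq table of GRCr8, which named 21093 of 45565 probes with a value on every array. The array's own coordinates were not used. Pde1 was read as Pde1 followed by a letter, which leaves out Pde11a and Pde12.

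Array values are printed for Gpr17 and for members without overlap and with an unadjusted p under 0.05, for further members as examples of a class or, where said, as chosen after their values were seen, and for the 2 largest genes without overlap per related list. The members and lists were chosen with earlier results of these data known. The fit was tested on simulated data with 2 arrays per group. At the thresholds it called 26 of 100 simulated log2 changes of 1, 64 of 100 changes of 2, and 7 unchanged probes. These shares hold for the simulated setting only. Alternatives were normexp background correction (offset 50) on the spot median, since the spot mean was not used here, quantile normalization, median scaling, no or a stricter filter on dim probes, the replicate number as a block, the t-test of the methods, eBayes with trend and robust, the mean over probes, each array left out, and spike-in scaling. With 1 slide and 1 scan, neither could be a block. The correlation of replicate differences between groups was -0.0652, which gives no sign of pairing by replicate number. Dim probes are part of it, so it cannot show that the samples were unpaired. In both groups replicate 1 lay in slide row 1 and replicate 2 in slide row 2, so replicate number and row cannot be told apart.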

Additional observations from a re-analysis of the deposited data

How the results depend on the processing

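With 2 arrays per group, only changes well beyond the spread between replicates could pass. The number of all tested probes past the thresholds was 1 in the reported fit. It was 242 with normexp, 420 with the trend and robust options, and 0 without a filter on dim probes, with the filter of all 4 arrays, with the methods' t-test and with spike-in scaling. With the replicate number as a block it was also 0, and the block changed no other call. Leaving out each array in turn gave 0 each time, with the lone array left assumed to vary like the other group. The cause of these shifts was not tested. Averaging over probes gives no count over probes. The members past the thresholds numbered 1, Prkar2a, with the trend and robust options, and 0 in every other setting run. With spike-in scaling, chosen after seeing the data, the members lower without overlap numbered 6. The median log2 fold change of the members was -0.037 with normexp, -0.090 to -0.032 with each array left out in turn, and 0.074 with spike-in scaling. In 3 cases a single value reversed, Pde4d to -0.12 with the mean over its probes, and Gnas to 0.057 without siNEG replicate 2 and to 0.10 with spike-in scaling. Of 208 values of Gpr17 and 14 members under the alternatives, 202 kept direction and side of the threshold, 3 reversed and 3 passed only there. Those that passed were Gpr17 with normexp (log2 -0.66, limma adjusted p = 0.022), and Gpr17 (limma adjusted p = 0.015) and Prkar2a with the trend and robust options. With 4 arrays on 1 slide and in 1 scan, the slide as a block was not run.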
